A study of Mus musculus with 8 samples.

Results

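The genes described here are the drug-metabolizing cytochromes P450 of families 1 to 3 in mouse liver. They were taken as every row of the count tables whose symbol starts with Cyp followed by 1, 2 or 3 and a subfamily letter, which gave 63 of 23282 rows. Of these, 57 had at least 1 count in some library, 46 passed the filter on low counts and were tested, and 17 were not tested. C57BL/6 mice, labelled male and 4 weeks old, formed 3 groups. The control group received saline, the endotoxemic group 25 mg/kg of LPS, and the LGK974 group the same LPS dose plus LGK974 at 60 mg/kg. The labels give neither a dose nor the LPS for the LGK974 group, and both were taken from the text of the study. LPS is the endotoxin of Gram-negative bacteria, and LGK974 inhibits Porcupine, the acyltransferase that Wnt proteins need for secretion. The methods place liver collection 6 h after LPS, and most of the study's experiments gave LGK974 2 h before it. The animals behind each library were not described, so p-values measure the spread between these libraries, which may be technical.

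P450 enzymes are haem proteins of the endoplasmic reticulum that oxidise drugs, toxicants, steroids and fatty acids with electrons passed on by P450 oxidoreductase. In liver most of them are made by hepatocytes, many of them around the central vein. Their transcription depends on receptors that sense foreign compounds (AhR, CAR, PXR), on liver factors such as HNF4A, and, for several rodent genes, on the sex-specific pattern of growth hormone. Inflammation is known to lower the transcripts of many hepatic P450s.

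The 8 deposited libraries held 6 different ones: endotoxemic libraries 3 and 4 were identical to libraries 1 and 2 on every row and were counted once, which left 2 libraries in each of the 3 groups. Totals ran from 9142116 to 15222439 counts, so that a floor of 3 counts stood for 0.197 to 0.328 CPM (a library's counts scaled to a common total). The label of male sex went against the sex-linked genes in 2 of the groups: Xist averaged 169 TMM-scaled CPM in control, 164 in endotoxemic and 0.35 in LGK974 libraries, whereas Ddx3y, on the Y chromosome, was at 0, 0 and 113. In every comparison with the LGK974 group, treatment and this difference therefore cannot be told apart. Also, 579 rows stood away from their genomic neighbours in the order of the table, which may pair a symbol with the counts of another gene. None of the 63 P450 rows was among them, and the displaced rows beside them were C5ar1 next to Cyp2s1, Hp next to Cyp2a4 and Il6 next to Cyp2r1.

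P450 transcripts took 1.78% and 1.96% of all control counts. This share was 0.469% and 0.491% after LPS, and 0.541% and 0.364% with LGK974. Summed over the 63 genes, the level was 18850 ± 877 CPM in control, 4734 ± 85.6 in endotoxemic and 4564 ± 1380 in LGK974 livers (mean ± SD, n = 2 each). All CPM values below were scaled by TMM factors. The libraries were made from the 3′ ends of transcripts, so a count does not grow with transcript length. In bulk liver, fewer hepatocytes and less RNA per hepatocyte cannot be told apart.

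**Figure D1:**
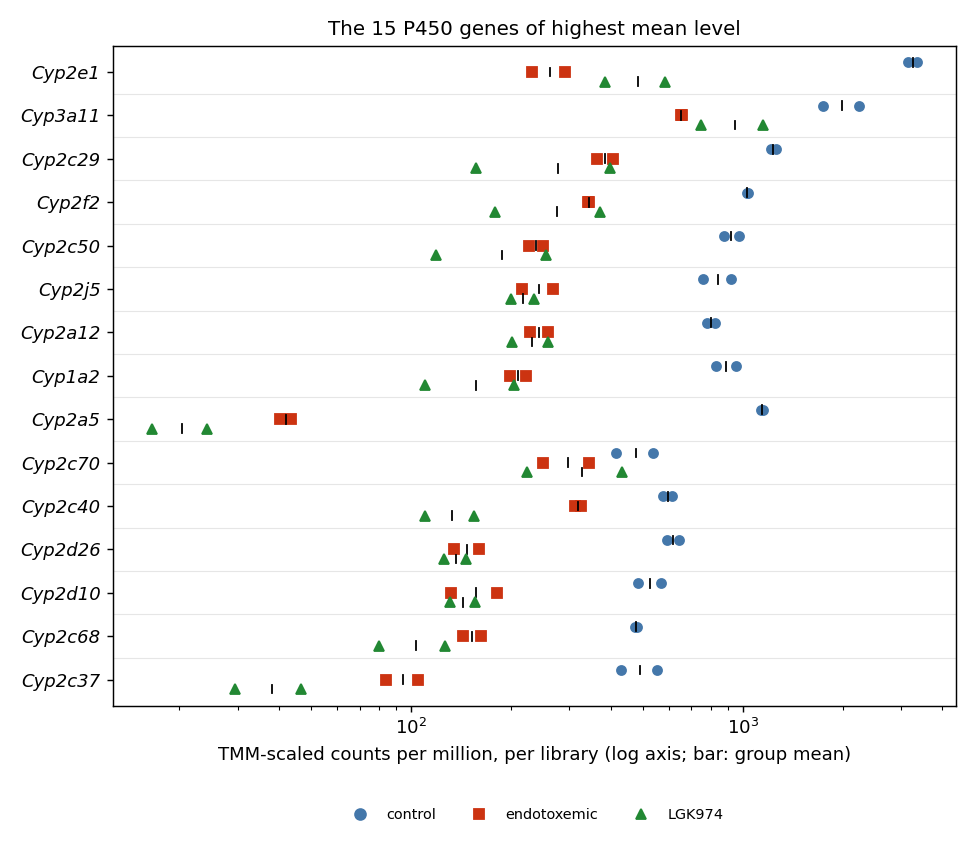
Level of the 15 P450 genes with the highest mean over the groups, in TMM-scaled CPM on a log axis; each symbol is 1 library (2 per group) and each bar a group mean. For Cyp2e1 the control libraries stand at 3356 and 3151, above endotoxemic livers (292 and 232) and LGK974 livers (585 and 384).

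The first comparison asked how P450 expression differed in livers of mice given LPS. Of the 46 genes tested, 41 fell, 1 rose and 4 did not pass the test (edgeR's quasi-likelihood test, Benjamini-Hochberg adjusted p below 0.05). Over all 12701 rows tested, 23% fell and 20.4% rose. The median log2 fold change was -2.04 for the P450 genes and 0.01 for all rows. In 44 of the 46 genes both endotoxemic libraries lay below both control libraries, as they did in 39.2% of all rows, and in 1 gene both lay above, as in 37.9%.

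Cyp2e1, which oxidises ethanol and acetaminophen, was the P450 of highest level in control liver, at 3356 and 3151 CPM. It was at 292 and 232 CPM in the endotoxemic libraries, so that the groups were far apart and the gene moved from the first to the sixth place among the P450s. The fall was 12.4-fold (log2 fold change -3.64 ± 0.27 SE, adjusted p = 1.18e-05, edgeR). Cyp3a11, a main drug-oxidising enzyme and a target of PXR, was at 1740 and 2237 CPM in control and at 655 and 652 in endotoxemic libraries. Its fall of 3.04-fold (-1.61 ± 0.25) left it the highest P450 of the endotoxemic group. Cyp2c29, at 1261 and 1215 against 406 and 363 CPM, fell by 1.69 on the log2 scale. Cyp1a2, which oxidises caffeine and aromatic amines, was at 828 and 953 against 199 and 221 CPM and fell by 2.08.

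The Cyp2a genes held the largest fall among the abundant P450s. Cyp2a5, a coumarin hydroxylase, was at 1133 and 1151 CPM in control and at 40.3 and 43.5 in endotoxemic libraries. The groups differed 27.3-fold (-4.77 ± 0.25, adjusted p = 2.39e-06, edgeR). Its close paralog Cyp2a4, a testosterone hydroxylase, was at 240 and 219 against 22.3 and 24.7 CPM and fell by 3.29, and Cyp2a22 and Cyp2a12 fell by 1.87 and 1.72. All 4 Cyp2a genes thus passed the test, with a median of -2.58.

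Because Cyp2a4 and Cyp2a5 had almost the same promoter but different levels, the 250 bases before each start are shown, from RefSeq on GRCm38.p6, with the bases that differ or are unpaired in capitals. The Cyp2a4 stretch lay at chr7:26306942-26307191 and the Cyp2a5 stretch at chr7:26835089-26835338, both on the plus strand. When aligned, 245 bases were identical, 4 were mismatched and the first or last base was unpaired.
Cyp2a4: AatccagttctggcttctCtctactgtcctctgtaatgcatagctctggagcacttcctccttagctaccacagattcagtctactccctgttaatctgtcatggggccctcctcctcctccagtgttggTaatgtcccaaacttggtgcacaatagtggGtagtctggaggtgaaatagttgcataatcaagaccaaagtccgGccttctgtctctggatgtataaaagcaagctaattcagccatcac
Cyp2a5: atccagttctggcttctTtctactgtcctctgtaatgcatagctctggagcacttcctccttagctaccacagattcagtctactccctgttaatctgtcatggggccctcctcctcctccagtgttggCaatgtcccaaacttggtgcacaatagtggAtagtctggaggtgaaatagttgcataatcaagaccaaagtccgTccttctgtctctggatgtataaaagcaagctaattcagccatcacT
Both stretches contain the letters TATAAA. Of the 50-base windows in the last 400 bases of the Cyp2a4 transcript, 33.3% also occurred in another transcript, most often that of Cyp2a5, so counts could be split between the 2 genes.

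In the Cyp2b subfamily the response was uneven. Cyp2b13 was at 162 and 171 CPM in control and at 6.66 and 7.57 in endotoxemic libraries, a fall of 4.55 on the log2 scale, and Cyp2b9, at 179 and 193 against 27.6 and 30.7 CPM, fell by 2.67. Cyp2b10, the classical CAR target, was at 30.4 and 36.7 against 25.6 and 24.0 CPM. Its difference of -0.44 ± 0.43 did not pass the test (adjusted p = 0.438, edgeR), although the libraries did not overlap. Cyp2g1, an olfactory P450 in this gene cluster, had 44 and 52 counts in control and 0 in both endotoxemic libraries, so it was at least 11.6-fold lower against a floor of 3 counts per library.

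Of the 13 Cyp2c genes tested, which metabolise drugs and fatty acids, 11 fell and the median was -1.80. Shares of 37.3% to 67% of the 3′ windows of Cyp2c40, Cyp2c67, Cyp2c68 and Cyp2c69 occurred in another transcript, so their separate values are uncertain. The falls ran from -0.90 ± 0.21 for Cyp2c40 to -3.45 ± 0.78 for Cyp2c39, which had only 6 counts in the endotoxemic libraries. Cyp2c50, at 877 and 972 against 251 and 226 CPM, fell by 1.95, and Cyp2c37 and Cyp2c54 fell by 2.38 and 1.80. Cyp2c44, an epoxygenase of arachidonic acid, was at 380 and 342 CPM in control and at 57.4 and 56.1 in endotoxemic libraries. Cyp2c70, which makes the muricholic acids of mouse bile, was at 415 and 535 against 251 and 344 CPM, a difference of -0.68 ± 0.31 that did not pass the test (adjusted p = 0.113, edgeR). Cyp2c55 (-2.65 ± 0.98, adjusted p = 0.0536) did not pass either.

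All 10 Cyp2d genes fell, with a median of -2.13. The 2 of highest level, Cyp2d26 and Cyp2d10, fell by 2.07 and 1.74. Shares of 33% and 25.1% of their 3′ windows occurred in another transcript (24.2% for Cyp2e1), so their separate values are uncertain. The largest fitted falls were those of Cyp2d12, with 3 endotoxemic counts against 58 in control (ratio 13.8, 95% counting interval 4.48 to 68.6), and of the pseudogene Cyp2d37-ps. Among the 7 Cyp3a genes tested 6 fell, and Cyp3a44, at 1.76 and 2.68 against 2.95 and 1.81 CPM, did not pass the test. Cyp3a16 had 24 and 9 counts in control and 2 and 0 in endotoxemic libraries and was not tested. Cyp3a25 was at 445 and 518 against 78.6 and 70.8 CPM and fell by 2.69. Cyp3a41a and Cyp3a41b share all 50-base windows of their 3′ ends and cannot be told apart; their sum was 176 and 168 CPM in control and 16.0 and 14.7 in endotoxemic libraries.

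Cyp2f2, a naphthalene oxidase of periportal hepatocytes, was at 1030 and 1034 against 342 and 344 CPM and fell by 1.59. The fatty acid epoxygenases Cyp2j5 and Cyp2j6 fell by 1.79 and 0.89, and Cyp2j9 had 1 endotoxemic count against 54 in control (ratio 38.4, 95% counting interval 6.61 to 1540). Cyp2r1, which hydroxylates vitamin D, was at 10.4 and 10.8 against 1.96 and 2.56 CPM and fell by 2.23. Cyp2u1, a fatty acid hydroxylase, had 1 and 12 counts in control and 0 in endotoxemic libraries and was not tested. All 8 genes on the list of pericentral P450s fell (median -2.02), and 4 of the 6 on the list of P450s induced through CAR or PXR fell (median -1.74). Of the 42 genes called, 8 lost the call when 1 library was left out: Cyp2c29, Cyp2d12 and Cyp2j9 without endotoxemic library 2, Cyp2c39 and Cyp2d34 without endotoxemic library 1, Cyp2c40 without either of these or control library 2, Cyp2j6 without either of these or control library 1, and Cyp3a13 without endotoxemic library 2 or control library 1. Their highest adjusted p was between 0.052 (Cyp2c29) and 0.141 (Cyp2j6). Leaving out a library left its group with 1, which was assumed to vary like the other groups, so these fits do not measure the spread within that group.

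Cyp1b1 was the 1 gene that rose. This AhR target is known from stellate and other non-hepatocyte cells as well. Of 4 stellate markers on rows in order, Dcn rose by 0.60 on the log2 scale, Lrat fell by 2.93, Reln fell by 1.02 and Des did not pass the test, and their part in the Cyp1b1 values was not tested. Control livers gave 0 and 5 counts of Cyp1b1 and endotoxemic livers 20 and 25, a ratio of 12.7 with a 95% counting interval of 5.04 to 40.8 (log2 fold change 3.65 ± 0.87, adjusted p = 0.00839, edgeR). Cyp1a1, the AhR target most used as its readout, had 2 and 9 counts in control and 2 and 1 in endotoxemic libraries and was not tested.

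**Figure D2:**
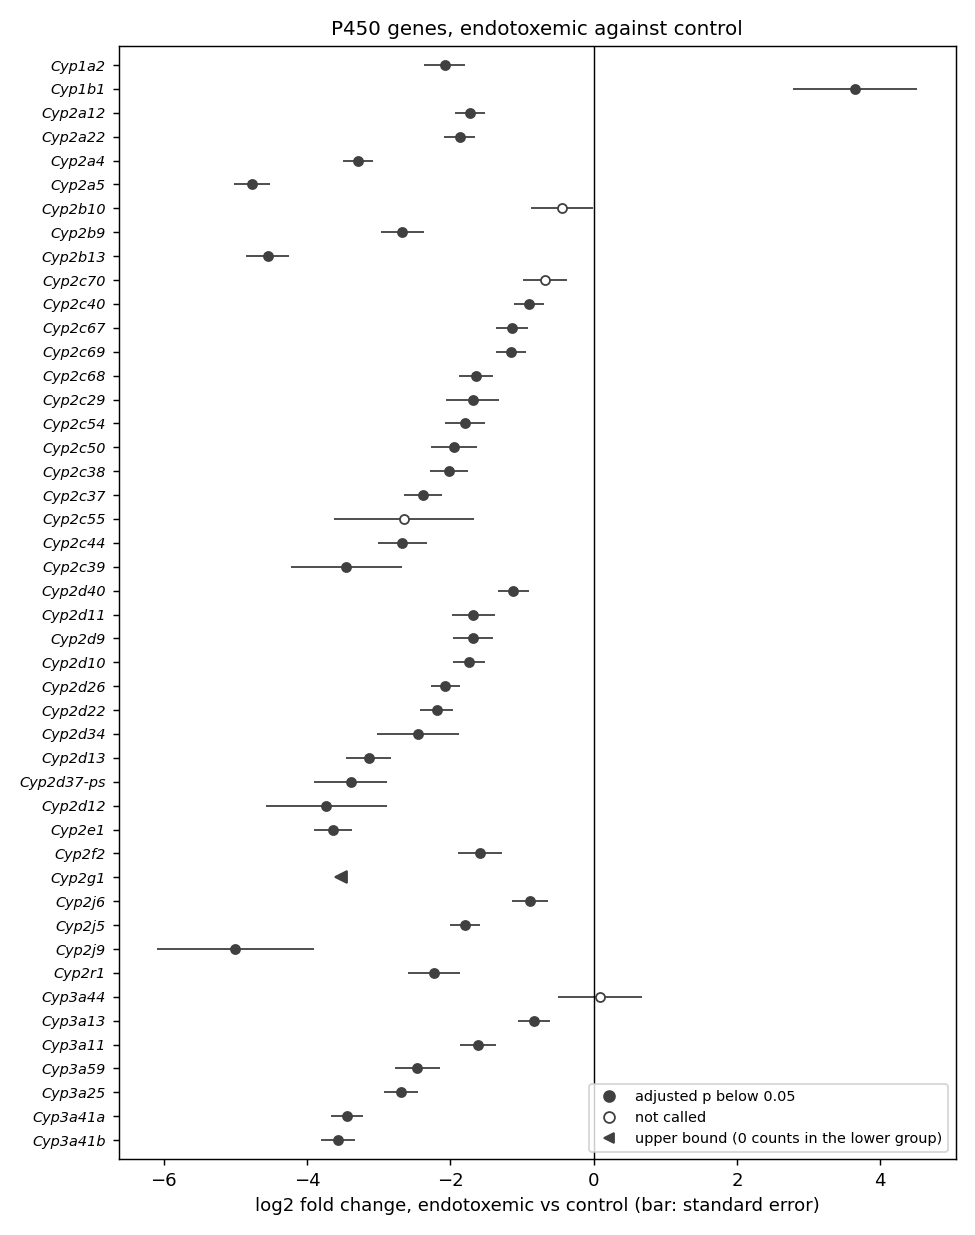
Log2 fold change between endotoxemic and control livers for the 46 P450 genes tested, grouped by subfamily, with standard errors as bars; filled symbols passed the test, open symbols did not, and the triangle for Cyp2g1 marks a bound. All genes but Cyp1b1 (3.65) and Cyp3a44 (0.09) lie below 0.

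The second comparison asked whether P450 expression differed between LGK974 and endotoxemic livers. In this comparison 10 genes fell, 3 rose and 33 did not pass the test, where 2.82% of all rows fell and 2.8% rose. The median log2 fold change of the P450 genes was -0.20, against 0.03 over all rows, and it was -0.24 without Cyp2g1, which had no count in either group. Leaving out single libraries moved both these counts and those over all rows: without LGK974 library 1, 21 P450 genes and 8.16% of all rows fell, and without endotoxemic library 2, 6 P450 genes and 0.195% of all rows fell. In 17 genes both LGK974 libraries lay below both endotoxemic libraries and in 12 above them, as in 26% and 26.5% of all rows. The number that rose was between 1 and 6 when any one library was left out: 6 without LGK974 library 1 (8.98% of all rows), 5 without LGK974 library 2 (4.76%), and 1 without any single control or endotoxemic library (0.172% to 0.953%). Of the 13 genes called, Cyp2d12, Cyp2d37-ps, Cyp2c37, Cyp2c40, Cyp2c69 and Cyp2a5 lost the call under at least 1 alternative, and the other 7 passed under every alternative that gave a value, the fits with 1 library in a group included. Of the 33 genes not called, 18 passed the test under at least 1 alternative. These alternatives include the fits with 1 library in a group and a fit with all 4 endotoxemic libraries, copies included, as samples. Under the latter, 12 of the 33 passed, but the copies make the spread too small.

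Genes on the list of female-biased P450s, chosen with earlier results of these data known, made up most of those that fell. Of its 8 tested genes 7 fell (87.5%, against 2.82% of all rows), with a median of -2.63. Cyp3a41a and Cyp3a41b, which cannot be told apart, are counted separately among the 7. Cyp2b9 was at 27.6 and 30.7 CPM in endotoxemic and at 0.528 and 0.068 in LGK974 libraries, which held 7 counts and 1 count. The ratio was 102, with a 95% counting interval of 51.5 to 238. Cyp2b13 had 61 and 71 counts in endotoxemic and 0 and 3 in LGK974 libraries (ratio 66.5, interval 22.3 to 327). The groups of both genes were far apart, and their 300-base promoter windows were 99.3% identical.

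Cyp2a4 was at 22.3 and 24.7 CPM in endotoxemic and at 1.36 and 1.08 in LGK974 libraries, a fall of 4.26 ± 0.25 on the log2 scale (adjusted p = 6.53e-05, edgeR). Its paralog with the near-identical promoter printed above, Cyp2a5, was at 40.3 and 43.5 against 24.2 and 16.5 CPM and fell by 1.04 ± 0.23 (adjusted p = 0.0325). Cyp2a22, which is not on the list, fell by 2.97, from 27.4 and 32.3 to 3.17 and 4.40 CPM. The summed Cyp3a41a and Cyp3a41b rows were at 2.79 and 2.17 CPM in the LGK974 libraries and fell by 2.63 ± 0.23 (adjusted p = 0.000656). Cyp2c40, Cyp2c69 and Cyp2c37 fell by 1.26, 1.59 and 1.31.

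The male-biased list had 1 tested gene, Cyp2d9, a testosterone hydroxylase. It was at 44.2 and 53.9 CPM in endotoxemic and at 395 and 222 in LGK974 libraries, above the control libraries at 146 and 172. The rise against the endotoxemic group was 6.29-fold (2.65 ± 0.29, adjusted p = 0.00242, edgeR). Cyp2d12, with 3 counts against 56 (ratio 12.4, 95% counting interval 4.02 to 61.7), and Cyp2d37-ps (2.46 ± 0.51) also rose. Shares of 18.2% and 3.99% of their 3′ windows occurred in another transcript, most often that of Cyp2d9, for which the share was 26.8%. Counts could thus be split between these genes, and their separate values are uncertain. With the genes of the sex-biased lists left out, an alternative added after the data were seen, 3 of 37 tested genes fell and 2 rose (median -0.10). These were 8.11% and 5.41%, against 2.82% and 2.8% of all rows, and the 2 that rose were Cyp2d12 and Cyp2d37-ps. The part of sex in these differences was not tested, since no library of the LGK974 group matched the others.

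**Figure D3:**
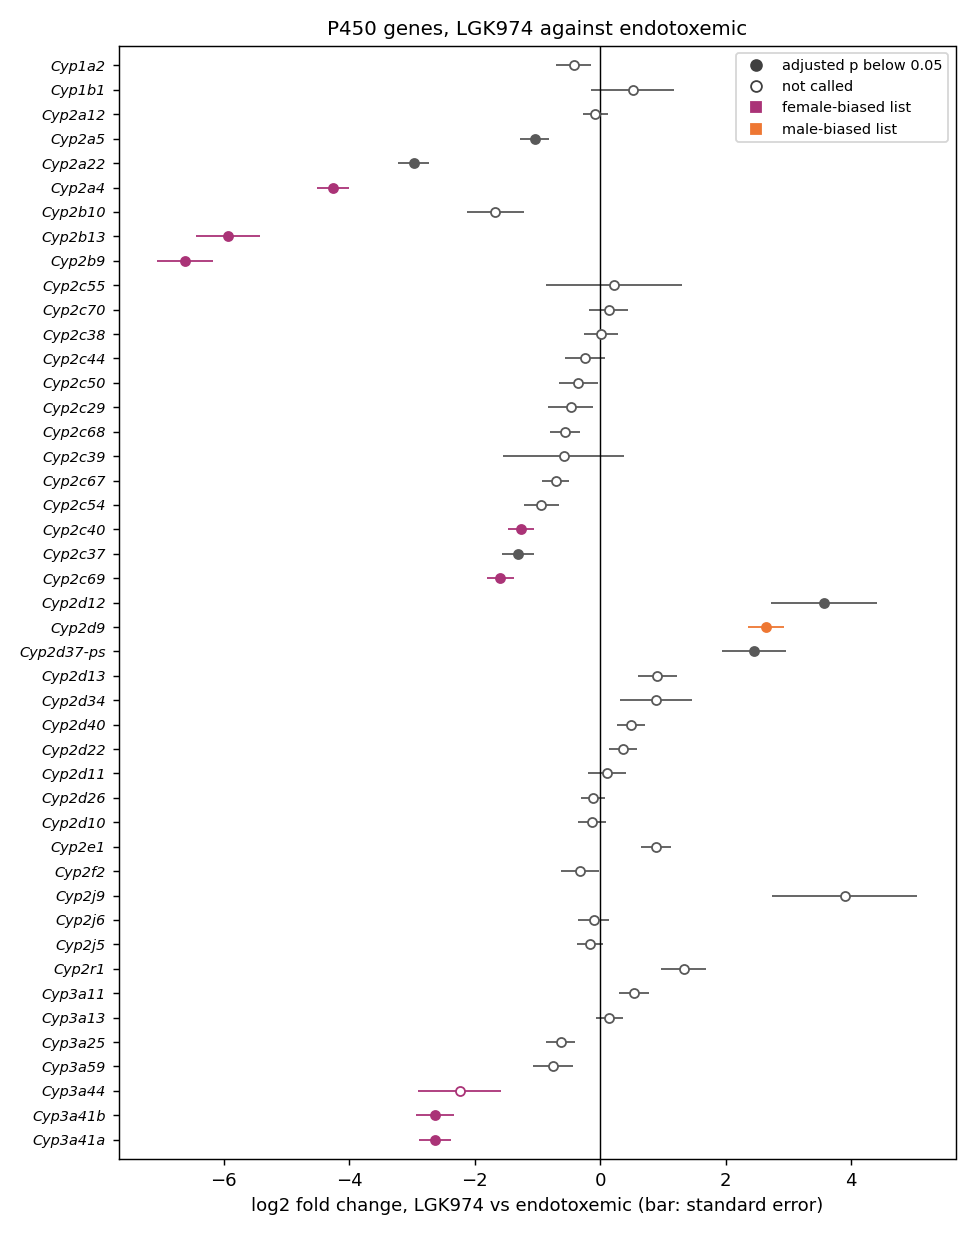
Log2 fold change between LGK974 and endotoxemic livers for the 45 tested P450 genes with a count in either group, with standard errors as bars; filled symbols passed the test and colours mark the sex-biased lists. The genes of the female-biased list lie between -1.26 and -6.62.

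**Figure D4:**
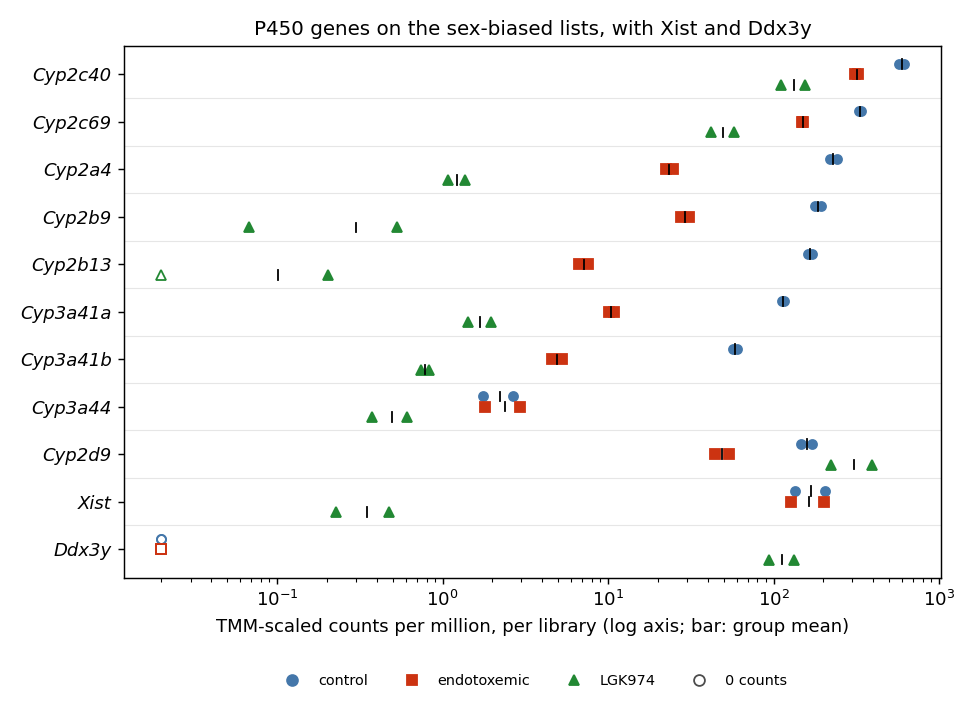
Level of the P450 genes on the sex-biased lists beside Xist and Ddx3y, in TMM-scaled CPM on a log axis; each symbol is 1 library, each bar a group mean, and open symbols at the left edge are libraries with 0 counts. Xist is at 0.226 and 0.474 in the LGK974 libraries and Ddx3y is at 132 and 94.2 there.

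Of the 15 P450 genes of highest mean level, Cyp2c40, Cyp2a5 and Cyp2c37 fell, as given above, and 12 did not pass the test. Cyp2e1 was at 585 and 384 CPM in the LGK974 libraries, above both endotoxemic libraries, and its difference of 0.89 ± 0.24 missed the threshold (adjusted p = 0.067, edgeR; 0.00105 to 0.369 over the alternatives). Cyp3a11 was at 1154 and 747 CPM (0.54 ± 0.24, adjusted p = 0.227). Cyp2c29, at 398 and 157 CPM, Cyp2f2, at 372 and 179, and Cyp2c50, at 256 and 119, overlapped the endotoxemic libraries. The LGK974 libraries stood apart from each other in these genes, library 1 being the higher. The 45S ribosomal RNA row Rn45s took 4.80% and 9.38% of the counts in LGK974 libraries 1 and 2 and 7.17% to 8.26% in the others, and its part in these values was not tested. Cyp2r1 was at 4.98 and 6.43 CPM, a difference of 1.33 ± 0.36 (adjusted p = 0.0642), and Cyp2b10 was at 3.55 and 11.9 CPM (-1.67 ± 0.45, adjusted p = 0.0642). Cyp1b1 had 42 and 56 counts (0.52 ± 0.66, adjusted p = 0.681).

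Against control, 38 P450 genes were lower in LGK974 livers, 2 were higher and 6 did not pass the test, where 17.7% of all rows were lower and 16.4% higher. The median was -2.16. Both LGK974 libraries lay below both control libraries in 42 genes and above them in 2, as in 34.3% and 33.8% of all rows. This comparison shares its LGK974 libraries with the one before and its control libraries with the first. Cyp2e1 was 6.72-fold lower (-2.75 ± 0.26), Cyp3a11 2.09-fold lower and Cyp2a5 56.1-fold lower. Cyp2a4 was 187-fold lower, the Cyp2b9 ratio was 656 (95% counting interval 332 to 1520), the Cyp2b13 ratio was 1560 (534 to 7570) and Cyp2g1 was at least 17.4-fold lower. Cyp1b1 and Cyp2d9 were higher, by 4.17 ± 0.85 and 0.96 ± 0.28 on the log2 scale. Cyp2d9 lost its call without either control library or without LGK974 library 1 (highest adjusted p 0.175), and Cyp3a11 lost it without control library 2 (0.0933). The other calls lost under at least 1 alternative were those of Cyp2d34, Cyp2d40, Cyp2j6, Cyp3a13 and Cyp3a44. Cyp2c70 (-0.53 ± 0.31, adjusted p = 0.222, edgeR) and Cyp2r1 (-0.89 ± 0.32, adjusted p = 0.059) were among those that did not pass.

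The promoter windows, 250 bases before to 50 after each start, were available for 53 of the 63 genes. They were searched on both strands for 8 motifs. The letters CAAAGTCCA, an HNF4A element, occurred in 10 of the 53 genes (18.9%) and in 0.555% of all 27025 genes with a window. All were Cyp2c or Cyp3a genes, whose copies share sequence and are not independent. The TATA box letters TATAAA occurred in 52.8% of these P450 genes and 15.7% of all genes, the AhR core GCGTG in 18.9% and 35.2%, and the STAT5 element TTCNNNGAA in 3.77% and 9.55%. The HNF1 element, the C/EBP element TTGCGCAA, the PAR bZIP element TTATGTAA and the NF-κB element occurred in 0 of the 53, and in 0.0111%, 0.207%, 1.11% and 0.174% of all genes. Of the HNF4A elements, 6 are shown with their flanks and the element in capitals, since they span genes that fell by different amounts and Cyp2c70, which did not pass the test (RefSeq, GRCm38.p6). The Cyp2c40 stretch lay at chr19:39812837-39812873 on the minus strand. The Cyp2c69 stretch lay at chr19:39886822-39886858 on the minus strand. The Cyp2c68 stretch lay at chr19:39741156-39741192 on the minus strand. The Cyp2c70 stretch lay at chr19:40187328-40187364 on the minus strand. The Cyp3a41a stretch lay at chr5:145720209-145720245 on the minus strand. The Cyp3a11 stretch lay at chr5:145879941-145879977 on the minus strand.
Cyp2c40: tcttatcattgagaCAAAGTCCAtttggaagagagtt
Cyp2c69: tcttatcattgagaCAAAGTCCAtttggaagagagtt
Cyp2c68: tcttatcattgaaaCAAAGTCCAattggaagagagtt
Cyp2c70: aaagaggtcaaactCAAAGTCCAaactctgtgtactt
Cyp3a41a: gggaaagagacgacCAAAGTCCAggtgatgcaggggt
Cyp3a11: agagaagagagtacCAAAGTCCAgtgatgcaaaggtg
Cyp2c40 and Cyp2c69 are the same over this stretch, and their falls against control were -0.90 and -1.15. Cyp3a41a and Cyp3a41b, with -3.48 for their summed rows, and Cyp3a11, with -1.61, also carried the element. A match describes the letters and is not evidence of binding.

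All 6 electron donors and membrane partners of the P450 enzymes fell in endotoxemic livers (median -1.53). Por, the oxidoreductase, was at 228 and 203 CPM in control and at 93.9 and 73.9 in endotoxemic libraries, and Cyb5a, cytochrome b5, fell by 1.75. None of the 6 passed the test between LGK974 and endotoxemic livers by edgeR, and 2 of them, Cyb5r3 and Cyb5b, had an unadjusted p below 0.05 (0.0229 and 0.00961). Of 11 haem genes on rows in genomic order, 6 fell with LPS and 5 did not pass the test. Alas1, the rate-limiting enzyme of haem synthesis, was at 210 and 199, then 113 and 92.4, then 294 and 259 CPM, and its rise between endotoxemic and LGK974 livers was 1.43 ± 0.20 (adjusted p = 0.00668, edgeR).

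Among 21 tested regulators of P450 transcription on rows in order, 13 fell and 3 rose with LPS. Nr1i3, which encodes CAR, was at 46.7 and 54.4 CPM in control and at 1.20 and 0.959 in endotoxemic libraries, and fell by 5.54. Nr1i2, which encodes PXR, fell by 2.31 and Ppara fell by 4.50. Hnf4a was at 281 and 291 against 248.8 and 264 CPM, a difference of -0.16 ± 0.19 that did not pass the test (adjusted p = 0.539, edgeR). The clock-output factors had log2 fold changes of -5.24 for Dbp, -4.21 for Tef and -2.81 for Hlf. These 3 and Ppara were the 4 regulators that rose between endotoxemic and LGK974 livers, Dbp by 3.32, Tef by 3.47, Hlf by 1.35 and Ppara by 2.74, while Cebpa fell by 0.83. Of 6 regulators on the growth hormone axis on rows in order, 4 fell and 1 rose with LPS. Ghr, the growth hormone receptor, fell by 2.35, and Socs2, a feedback inhibitor of its signalling, rose by 2.58 ± 0.69. In the LGK974 libraries Socs2 was at 199 and 27.7 CPM, so that these 2 libraries stood far apart.

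**Figure D5:**
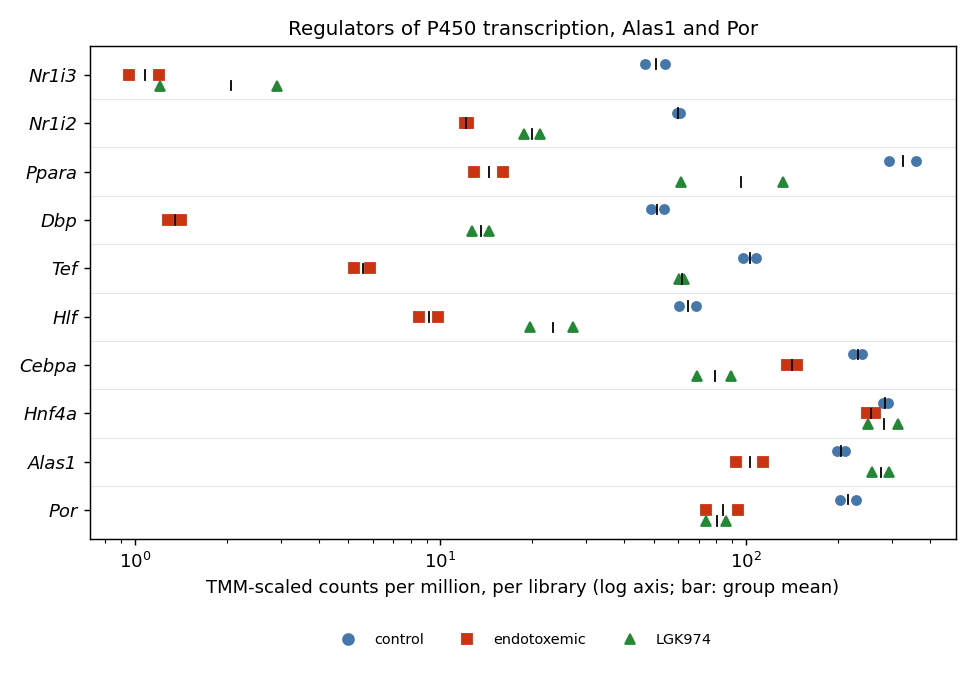
Level of 8 regulators of P450 transcription, of Alas1 and of Por, in TMM-scaled CPM on a log axis; each symbol is 1 library (2 per group) and each bar a group mean. Nr1i3 falls from 46.7 and 54.4 in control to 1.20 and 0.959 in endotoxemic livers, whereas the Hnf4a libraries of all groups lie between 248.8 and 314.

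Markers of liver cells moved with these groups as well. The summed level of 7 hepatocyte markers was 87390 to 118700 CPM in control, 40680 to 57330 in endotoxemic and 42800 to 44640 in LGK974 libraries, and 4 of the 7 fell with LPS. Of 10 pericentral markers 9 fell with LPS, and of 8 periportal markers reported here 7 fell, Cps1 and Pck1 among them. The 3 neutrophil markers on rows in order rose, from 1.76 to 2.35 CPM summed in control to 56.5 to 70.8 in endotoxemic libraries. No hepatocyte marker was at 0 in any library. Of 5 Kupffer cell markers on rows in order, Marco rose by 3.70 while Clec4f fell by 0.89 and Vsig4 fell by 2.76, and the summed level was 95.5 to 101 CPM in control, 117 to 138 in endotoxemic and 85.5 to 119 in LGK974 libraries. Of 6 sinusoidal endothelial markers, Lyve1 rose by 3.03 whereas Kdr fell by 5.36, Ptprb fell by 3.54 and Clec4g fell by 3.49. Krt19 was the 1 of 4 cholangiocyte markers that fell, and of the T and NK cell markers Ncr1 was at 0 throughout and only Nkg7 was tested, which did not pass.

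Between LGK974 and endotoxemic livers, Clec4f fell by 1.30, and 4 of the 5 Kupffer cell markers on rows in order did not pass the test. Of 6 sinusoidal endothelial markers, Clec4g fell by 2.19, Ptprb rose by 1.30 and 4 did not pass. Of the 8 periportal markers reported here, Pck1 rose by 2.47 and 7 did not pass. None of the hepatocyte, pericentral, neutrophil, stellate or cholangiocyte markers on rows in order passed this test by edgeR, and 1, 4, 1, 0 and 1 of them, respectively, had an unadjusted p below 0.05. The part of these shifts in the P450 values was not tested.

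For comparison, of 21 tested P450 genes of other families on rows in order, which make steroids, bile acids and fatty acid products, 14 fell and 2 rose with LPS (median -1.71). Whether families 1 to 3 differ from these was not tested.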

How the data were processed

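Liver RNA was sequenced from 3′ ends (Lexogen QuantSeq). The authors deposited raw read counts per gene symbol; per the labels, Bowtie2, edgeR and mm10 were used, and versions are not given in the sources used here. Groups came from the labels. Identical endotoxemic libraries were counted once. Counts were filtered on low expression, scaled by TMM and tested over 12701 rows with edgeR 4.0.16 (R 4.3.3; quasi-likelihood, 3 groups in 1 fit, Benjamini-Hochberg adjustment over all rows, threshold 0.05). The common biological coefficient of variation was 0.239. The script was tested on simulated data. DESeq2 1.42.0, limma-voom (limma 3.58.1), other scalings and filters and leaving out each library were alternatives. Counting intervals are exact at 95%; intervals and floors (3 counts) cover counting error only. Named genes were the 15 of highest mean CPM, the 5 largest rises and falls that passed each test without overlap, all Cyp1 genes, the members of the lists of AhR, CAR or PXR, zonal and sex-biased P450s, Cyp2r1 and Cyp2u1. Of lists outside the P450s, only examples were named, which departs from the rule as fixed; these and other genes were named after their values were seen. The members and lists were chosen with earlier results of these data known. How reads matching several genes were counted is not given in the sources used here. Sequences are from RefSeq (GRCm38.p6), aligned with Biopython 1.88. 1 marker of the periportal list is not reported here.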

Additional observations from a re-analysis of the deposited data

How the results depend on the processing

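With 2 libraries per group and the endotoxemic pair deposited 2 times, small differences could not be resolved, and groups at or under the floor of 3 counts gave only bounds or ratios with wide counting intervals. No P450 difference that passed the test as reported changed its sign under an alternative, but 17 that did not pass changed it under at least 1, in 30 values, none of which passed. Between LGK974 and endotoxemic livers, Cyp2c55 was at -0.49 with limma-voom, and Cyp2c38 at -0.01 with RLE size factors, with DESeq2 and with the replicate block and at -0.02 with limma-voom. Leaving out 1 library at a time, with the remaining library of its group assumed to vary like the other groups, gave, in that comparison, log2 fold changes of -0.20 to 0.37 for Cyp2d11, -0.37 to 0.12 for Cyp2d10, -0.26 to 0.02 for Cyp2d26, -2.31 to 1.12 for Cyp2c55, -1.29 to 0.05 for Cyp2c29, -0.33 to 0.28 for Cyp2c38, -1.31 to 0.91 for Cyp2c39, -1.00 to 0.10 for Cyp2c50, -0.41 to 0.54 for Cyp2c70, -0.93 to 0.23 for Cyp2c44, -0.42 to 0.16 for Cyp2j6, -0.33 to 0.01 for Cyp2j5, -0.04 to 0.33 for Cyp3a13, -0.27 to 0.09 for Cyp2a12 and -0.94 to 0.12 for Cyp2f2. It gave -0.24 to 0.43 for Cyp3a44 between endotoxemic and control livers and -0.74 to 0.26 for Cyp2d12 between LGK974 and control livers; the cause was not tested. Of the genes called, 34 of 42 (endotoxemic against control), 7 of 13 (LGK974 against endotoxemic) and 33 of 40 (LGK974 against control) passed under every alternative that gave a value. Of the genes not called, 2 of 4, 18 of 33 and 4 of 6 passed under at least 1. These alternatives include the fit with copies of the endotoxemic libraries as samples and the fits with 1 library in a group. Requiring 10 counts in every library left 0 genes higher in endotoxemic livers (21.1% of all rows). It left 1 higher in LGK974 than in control livers (16.4%), in both cases because fewer genes were tested. Between LGK974 and endotoxemic livers, the number higher was 6 without a filter (5.1% of all rows) and 1 with limma-voom (2.05%). It was 1 with only the 2 groups compared (0.897%), and the cause was not tested. With all 4 endotoxemic libraries as samples, 9 were higher (13.6%) and 16 lower (12.3%). That fit counted 2 copies of each endotoxemic library as separate samples, so its spread within that group is too small. Leaving out the sex-biased lists (added after the data were seen) gave 3 lower between LGK974 and endotoxemic livers (8.11%, against 2.82% of all rows). It gave 1 higher in LGK974 than in control livers (2.7%, against 16.4% of all rows). Leaving out 1 library at a time gave 1 to 6 higher and 6 to 21 lower between LGK974 and endotoxemic livers, 1 to 2 higher and 33 to 39 lower between LGK974 and control livers, and 1 higher and 35 to 44 lower between endotoxemic and control livers. With the replicate number as a block, 1 was higher and 41 lower between endotoxemic and control livers (20.3% and 22.9% of all rows). Between LGK974 and endotoxemic livers, 3 were higher and 11 lower (2.6% and 2.8%). Between LGK974 and control livers, 2 were higher and 36 lower (16.1% and 17.8%). Same-numbered libraries correlated at 0.14, -0.0075 and 0.061, so the numbers were not taken as a pairing.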
